A study of Mus musculus with 36 samples.

Results

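The genes of the megalin and cubilin endocytic route were followed by RNA-seq in kidneys of 2 mouse models of polycystic kidney disease. The set was fixed by name as 7 of the 20458 genes with a symbol in the count table: the receptor genes Lrp2 and Cubn, the cubilin partner Amn, the adaptor Dab2, the endosomal genes Clcn5 and Ocrl, and the folate receptor Folr1. Where a gene had several transcript rows, the row with the highest mean count was used. Mice carried floxed Pkd1 (Pkd1f/f) or floxed Pkd2 (Pkd2f/f) on a C57BL/6 background. KO mice also carried the HoxB7-Cre transgene, whose Cre acts in collecting duct cells, and WT mice were littermates of the same age with the same floxed alleles and without Cre. Each of the 12 groups, KO and WT of either model on postnatal days 1, 3 and 7 (called P1, P3 and P7), held 3 libraries, which gave 36 in all. The RNA came from kidney tissue and not from sorted cells, so fewer cells of a type and less RNA per cell cannot be told apart in any result given here.

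Megalin, encoded by Lrp2, and cubilin, encoded by Cubn, are very large receptors of the proximal tubule brush border. They take up filtered albumin, vitamin-binding proteins, hormones and enzymes, and return to the apical membrane after their cargo has been released to endosomes and lysosomes. Cubilin has no membrane-spanning part and reaches the cell surface with amnionless, the product of Amn. The Dab2 protein links the megalin tail to clathrin, ClC-5 (Clcn5) exchanges chloride for protons in endosomes, and OCRL (Ocrl) removes a phosphate from membrane phosphoinositides. Loss of ClC-5 or OCRL causes Dent disease or Lowe syndrome in humans, both with low molecular weight proteinuria. The Folr1 product binds folate and is found in the same brush border. The proximal tubule is not the segment in which HoxB7-Cre deletes.

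Library totals ran from 7179152 to 15850818 reads counted on transcripts, with a median of 13143336 and the lowest total in replicate 2 of the Pkd1 WT kidneys at P1. The deleted genes gave little check of the labels, and the counts cover whole transcripts while the floxed parts are a few exons. The Pkd1 transcript differed by 0.10 on the log2 scale in Pkd1 KO at P7 (SE 0.12, adjusted p = 0.595), and the Pkd2 transcript fell by 0.29 in Pkd2 KO at P7 (SE 0.05, adjusted p = 0.0122). Y-linked genes were read in all 3 Pkd1 KO kidneys at P7 and, above 5 reads, in none of the 3 WT kidneys. Sex and genotype therefore cannot be told apart in that comparison. In the Pkd2 model at P7 all 3 KO and 2 of 3 WT kidneys had Y-linked reads. The summed level of 26 proximal tubule genes listed for this work was at least 30810 normalized counts in every library of P7, and 6 of these genes (Slc5a12, Slc22a8, Slc17a1, Slc4a4, Pdzk1 and Ass1) had fewer than 10 reads in every library. Replicate 2 of the Pkd2 WT kidneys at P3 stood apart in several members, with the lowest Lrp2 and Cubn of its group and 513.7 normalized counts of Dab2 against 248.3 and 267.6. It also stood apart across the table. Chi-square per transcript, a measure of how far libraries differ, was 53.64 and 48.21 against replicates 1 and 3, and 12.19 between replicates 1 and 3. The highest value within any group was 63.99, between replicates 2 and 3 of the Pkd1 WT kidneys at P7.

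Of the 7 genes, 5 had enough reads to be tested. Lrp2 (NM_001081088, chromosome 2, 69424335 to 69586029 on the minus strand of GRCm38.p6, the assembly of mm10) has 79 exons and a transcript of 15460 bases. Cubn (NM_001081084, chromosome 2, 13276338 to 13491876, minus strand) has 67 exons and 11262 bases. Both lie on chromosome 2 but not next to each other. Amn (NM_033603, chromosome 12, 111271096 to 111276426, plus strand) is far shorter, with 12 exons and 1701 bases. Ocrl (NM_177215, chromosome X, 47912418 to 47966428, plus strand) has 24 exons and 5253 bases. These 4 genes had 1 transcript row each. Dab2 (NM_023118, chromosome 15, 6299788 to 6440715, plus strand) had 4 rows, and only 832 of the 4663 bases of the row used were in no other row.

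Clcn5 and Folr1 could not be followed. Clcn5 (chromosome X, 7153810 to 7319358, minus strand) had 2 rows with 96 and 91 reads over all 36 libraries together, and at most 17 in any library. Of the 8390 bases of the second row, NM_016691, 5842 were in no other Clcn5 row, so shared bases alone cover only part of it. Folr1 (chromosome 7, 101858331 to 101870788, minus strand) had 4 rows, none with a base of its own, and its fullest row held 26 reads in all. Under default options the counting program leaves out a read that falls on more than 1 feature. Across the table, 72.3% of the 4726 genes with several rows had under 10 reads per library in the sum of their rows, against 35.0% of the 15732 genes with a single row. The near-zero values of Clcn5 and Folr1 are therefore given as counts in this table, and no level of either gene in the kidney was read from them. The counts of Dab2, which also had several rows, cover part of its transcript.

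The promoter windows of the 3 members that passed as lower in KO kidneys at P7 in at least 1 model are shown because these genes share a pathway and the levels of Lrp2 and Cubn moved together. RefSeq windows on GRCm38.p6, from 250 bases before to 50 after a transcript start, were found for 6 of the 7 genes, with 2 windows each for Dab2 and Clcn5. Both strands were searched for 4 short motifs, and matches are in capitals. An HNF1 half-site was read as GTTAAT. An HNF4 half-site was searched with the letters CAAAGT. The TATA box was taken to be TATAAA. For the GC box the letters GGGCGG were used. The Lrp2 window is chr2:69585980-69586279 (minus strand), the Cubn window chr2:13491827-13492126 (minus strand) and the Amn window chr12:111270846-111271145 (plus strand).
Lrp2: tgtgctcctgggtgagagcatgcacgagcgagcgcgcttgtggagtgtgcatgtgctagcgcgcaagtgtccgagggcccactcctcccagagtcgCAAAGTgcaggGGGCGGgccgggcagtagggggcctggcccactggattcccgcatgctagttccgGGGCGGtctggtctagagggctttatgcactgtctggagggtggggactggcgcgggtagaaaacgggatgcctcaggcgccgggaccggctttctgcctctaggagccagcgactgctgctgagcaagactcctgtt
Cubn: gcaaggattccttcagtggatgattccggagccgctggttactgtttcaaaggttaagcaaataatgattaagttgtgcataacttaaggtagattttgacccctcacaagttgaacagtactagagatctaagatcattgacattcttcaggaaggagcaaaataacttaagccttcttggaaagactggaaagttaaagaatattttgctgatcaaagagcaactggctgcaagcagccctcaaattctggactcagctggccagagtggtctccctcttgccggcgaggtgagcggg
Amn: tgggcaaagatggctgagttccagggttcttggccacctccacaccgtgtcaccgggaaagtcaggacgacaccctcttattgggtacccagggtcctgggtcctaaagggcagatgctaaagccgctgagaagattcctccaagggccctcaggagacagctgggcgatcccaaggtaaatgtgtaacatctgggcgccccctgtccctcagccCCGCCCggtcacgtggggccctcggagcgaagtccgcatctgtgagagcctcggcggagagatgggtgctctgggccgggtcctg
The windows of the closely matched pair Lrp2 and Cubn did not resemble each other in base content, at 65.0% and 44.3% G and C, and Amn stood at 62.3%. Lrp2 held 1 HNF4 half-site, 154 bases before the start, and 2 GC boxes. Amn held 1 GC box, 35 bases before the start, and the Cubn window held no match to any of the 4 motifs. Of all 32851 windows, 7.1% held the HNF1 half-site, 14.4% the HNF4 half-site, 13.6% the TATA box and 35.7% the GC box. These are matches of letters in a short window and say nothing about binding.

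Levels between genes were compared as normalized counts per kilobase of transcript. Over the 36 libraries the median was 816.9 for Lrp2 and 808.8 for Amn. The ratio of Amn to Lrp2 per length ran from 0.68 to 2.43 over the libraries, with a median of 0.988, and was 2.16 ± 0.26 in Pkd1 KO at P7 (SD, n = 3). Cubn stood at 274.1 and Ocrl at 263.9. Dab2 was listed at 55.3, a value that the shared bases of its rows make uncertain. The highest library was 8.8 times the lowest for Cubn, 5.73 times for Lrp2, 3.86 times for Dab2, 3.43 times for Amn and 1.59 times for Ocrl.

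**Figure D1:**
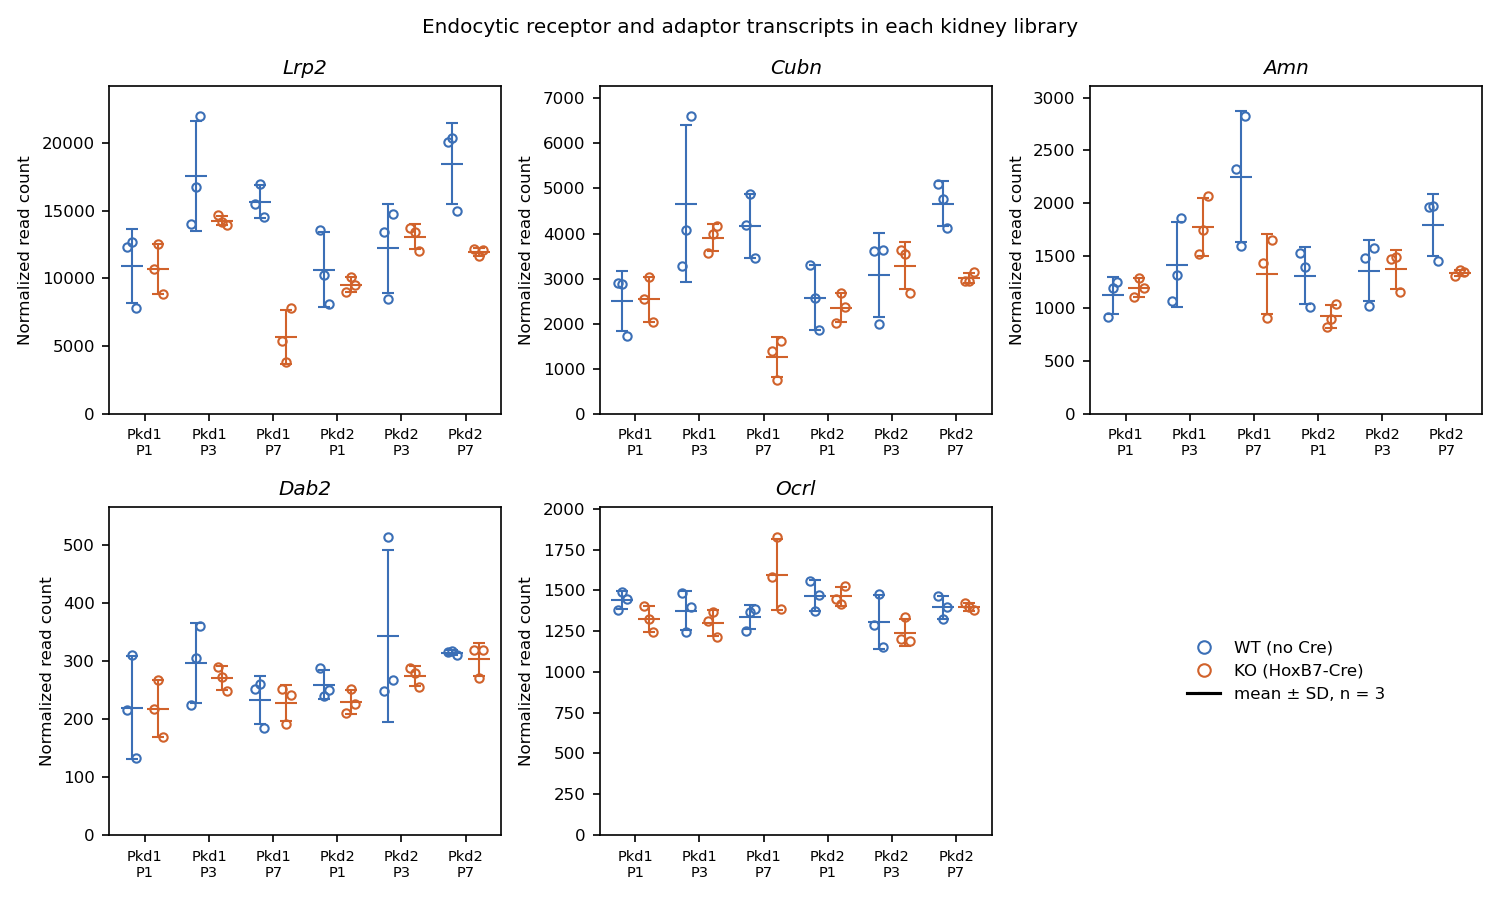
Normalized read counts (vertical axes, from 0) of Lrp2, Cubn, Amn, Dab2 and Ocrl in the 36 kidney libraries, by model and postnatal day, with WT in blue and KO in orange; points are libraries, horizontal marks the means and bars the SD of 3. Lrp2 and Cubn were separated between WT and KO at P7 in both models, while Dab2 overlapped. The share of all transcripts so separated was not counted.

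The first question was whether the receptor transcripts differed between KO and WT kidneys. They did so at P7 and in both models. In Pkd1 KO kidneys at P7, Lrp2 stood at 36.2% and Cubn at 30.1% of the WT mean. In Pkd2 KO kidneys the shares were 64.7% for Lrp2, 64.6% for Cubn and 74.4% for Amn. Dab2 and Ocrl passed the test at no day in either model. In Pkd1 KO at P7, 2 of the 5 tested members passed as lower, where 7.54% of all 12527 transcripts tested did. In Pkd2 KO at P7, 3 of 5 passed as lower, where 6.06% of 12633 did. Whether KO and WT values overlapped was read for the members alone, and the share over all transcripts was not counted.

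For megalin, the Pkd1 WT kidneys at P7 held 15480, 16970 and 14520 normalized Lrp2 counts, and the KO kidneys 5355, 3838 and 7828. The highest KO value was thus far below the lowest WT value. The means were 15660 ± 1232 and 5674 ± 2014 (SD, n = 3 each), and the log2 fold change was -1.48 (SE 0.23, adjusted p = 0.0111, edgeR's quasi-likelihood test). Pkd2 WT kidneys held 20060, 20380 and 15000 and the KO kidneys 12150, 11620 and 12070. Again no KO kidney reached the lowest WT kidney, and the KO values lay closer together than the WT values. The means were 18480 ± 3021 and 11950 ± 288 (SD, n = 3 each), with a log2 fold change of -0.64 (SE 0.12, adjusted p = 0.0122). This call was lost, at adjusted p = 0.0526 and 0.0589, without KO replicate 2 or WT replicate 1.

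For cubilin, the Pkd1 WT kidneys at P7 had 4179, 4887 and 3462 normalized counts and the KO kidneys 1397, 751.6 and 1619. The groups were separated by more than the whole range of the KO kidneys. Means were 4176 ± 713 and 1256 ± 451 (SD, n = 3 each), and the log2 fold change of -1.75 (SE 0.26, adjusted p = 0.0102) was the lowest of any member in any comparison of KO with WT. Pkd2 WT kidneys had 5095, 4776 and 4120 and KO kidneys 2949, 2941 and 3145. The groups did not overlap there either. The means were 4664 ± 497 and 3012 ± 115 (SD, n = 3 each), and the log2 fold change was -0.64 (SE 0.08, adjusted p = 0.00316). With the spread taken from all 18 libraries of the Pkd2 model, the adjusted p of Cubn was 0.0599.

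Amn, which brings cubilin to the membrane, had smaller log2 fold changes at P7 than Lrp2 and Cubn, a difference between genes that was not tested. In the Pkd1 model at P7 its WT values were 2326, 1592 and 2830 and its KO values 1430, 905.0 and 1646, so that the highest KO kidney passed the lowest WT kidney. The log2 fold change was -0.78 (SE 0.26, adjusted p = 0.0750), which missed the threshold. It passed without WT replicate 2 (-0.97, adjusted p = 0.0394), with all 18 libraries of the model in one fit (adjusted p = 0.0202) and with DESeq2 (adjusted p = 0.0172). Pkd2 WT kidneys had 1959, 1972 and 1454 and the KO kidneys 1305, 1361 and 1342, with no overlap. The log2 fold change was -0.43 (SE 0.11, adjusted p = 0.0400). Leaving out KO replicate 1, 2 or 3 or WT replicate 1 or 2 ended this call, with adjusted p of 0.109, 0.105, 0.115, 0.147 and 0.106, as did the fit over all 18 libraries (adjusted p = 0.110).

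The adaptor and the phosphatase did not follow the receptors. Dab2 at P7 had 252.0, 261.0 and 184.9 normalized counts in Pkd1 WT and 251.1, 192.1 and 241.1 in Pkd1 KO kidneys, a log2 difference of -0.04 (SE 0.20, adjusted p = 0.897). Its Pkd2 difference was -0.06 (SE 0.10, adjusted p = 0.739). Ocrl had 1253, 1369 and 1386 in Pkd1 WT and 1580, 1826 and 1387 in Pkd1 KO kidneys. The highest WT and the lowest KO kidney were level, and the log2 difference of 0.25 (SE 0.13) did not pass (adjusted p = 0.222). Ocrl in Pkd2 KO differed by less than 0.01 (log2 fold change -0.0033, SE 0.06, adjusted p = 0.980).

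**Figure D2:**
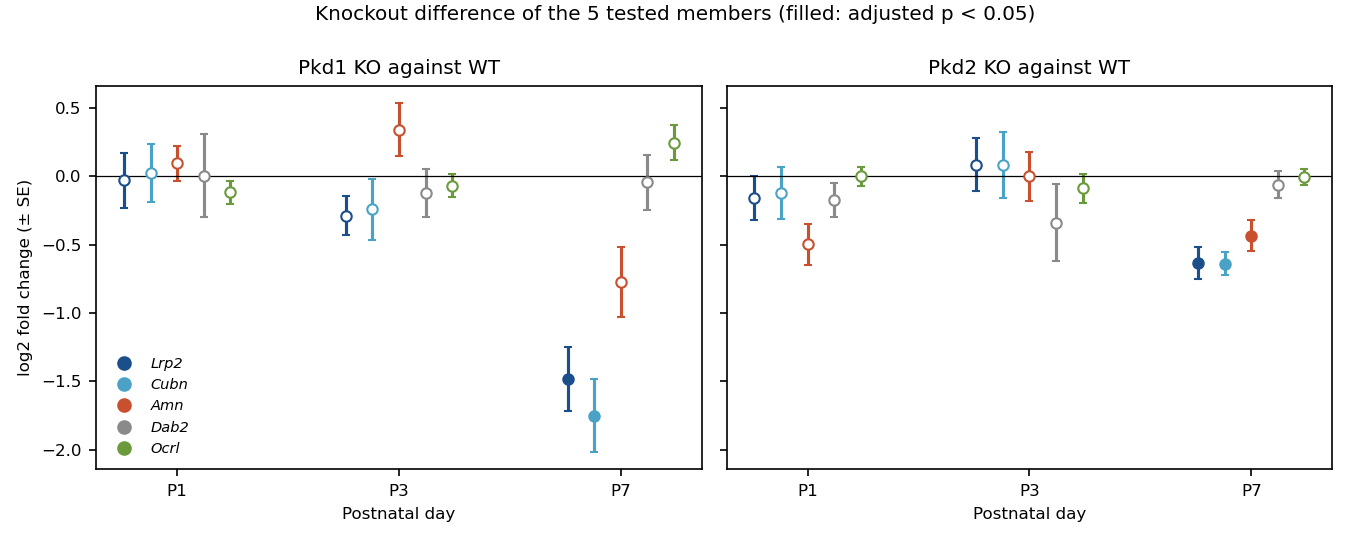
Log2 fold change of KO against WT (vertical axis, bars are SE) for the 5 tested members at P1, P3 and P7, with the Pkd1 model on the left and the Pkd2 model on the right; filled points had an adjusted p below 0.05. Filled points appear only at P7, for Lrp2 and Cubn in the Pkd1 model (-1.48 and -1.75) and for Lrp2, Cubn and Amn in the Pkd2 model (-0.64, -0.64 and -0.43).

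Measures of library composition moved with the Pkd1 comparison. Transcripts under 1500 bases had a median log2 fold change of 0.25 and those of 8000 bases or more -0.21 in Pkd1 KO at P7 (2038 and 581 transcripts), and Lrp2 and Cubn are among the latter. In Pkd2 KO at P7 the same medians were 0.05 and -0.04. They were 0.07 and -0.25 in Pkd1 KO at P3, and 0.20 and -0.26 in Pkd1 WT kidneys from P3 to P7. With each library's trend over transcript length removed, an alternative added after the data had been seen, Lrp2 and Cubn stayed lower in Pkd1 KO at -1.23 (adjusted p = 0.0177) and -1.50 (adjusted p = 0.0132), and Amn reached -0.88 (adjusted p = 0.0387). With the presence of Y-linked reads as a term in the fit of 18 Pkd1 libraries, Lrp2 was at -1.16 and Cubn at -1.45, and neither passed (adjusted p = 0.248 for each). In the Pkd1 model that term rests on the WT kidneys at P1, the only group with both kinds of library. With the same term in the Pkd2 model, Lrp2 was at -0.69 (adjusted p = 0.0283) and Cubn at -0.70 (adjusted p = 0.0492), and Amn no longer passed (-0.51, adjusted p = 0.0598). Without Pkd2 WT replicate 3, every P7 kidney of that model had Y-linked reads, and Lrp2 differed by -0.77, Cubn by -0.72 and Amn by -0.56 (adjusted p = 0.000421, 0.000332 and 0.000655).

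At P1 and P3 no member passed in either model. In edgeR's test 0.0% of 12527 transcripts passed in Pkd1 KO at P1 and 0.00798% at P3, and 0.0% of 12633 passed in Pkd2 KO at P1 and likewise 0.0% at P3. The counts at an unadjusted p below 0.05 were 161 and 1767 in the Pkd1 model and 708 and 563 in the Pkd2 model. DESeq2 passed 2, 248, 33 and 38 transcripts in the same order, and none of the 5 members. Lrp2 at P1 averaged 10930 ± 2736 in Pkd1 WT and 10680 ± 1864 in Pkd1 KO kidneys, and 10640 ± 2754 and 9520 ± 555 in the Pkd2 model (SD, n = 3 each). At P3 the Pkd1 means were 17580 ± 4069 and 14260 ± 342 and the Pkd2 means 12210 ± 3288 and 13060 ± 927. KO and WT values of Lrp2 and of Cubn overlapped at P1 and P3 in both models, and their WT groups were the wider ones in each. Amn in Pkd2 KO at P1 gave the lowest unadjusted p of these days, with 1529, 1390 and 1009 in WT and 825.2, 900.7 and 1045 in KO kidneys. Its log2 fold change of -0.50 had an unadjusted p of 0.0101 in edgeR's test and an adjusted p of 0.854.

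Whether the KO difference itself grew between P1 and P7 was tested as an interaction, which uses the same P7 libraries as the comparisons above. In the Pkd1 model the difference of Lrp2 was lower at P7 than at P1 by 1.45 on the log2 scale (log2 value -1.45, SE 0.32, adjusted p = 0.0141) and that of Cubn by 1.77 (log2 value -1.77, SE 0.39, adjusted p = 0.0141). These 2 of 5 members passed as lower, where 4.1% of 12527 transcripts did. For Amn the value was -0.87 (adjusted p = 0.109), and with the replicate number within each day as a block it was -0.88 (adjusted p = 0.0048). That block pairs same-numbered WT and KO libraries at P7 as well as at P1. At P7 such libraries did not deviate together (correlations -0.193, -0.012 and -0.14), so this pass of Amn rests in part on a pairing that the P7 libraries do not show. Ocrl differed in the other direction, by 0.36 (SE 0.14, adjusted p = 0.111), and passed without Pkd1 KO replicate 3 at P7 (0.47, adjusted p = 0.0355) and with the length trend removed (0.53, adjusted p = 0.0342). In the Pkd2 model 0 of 5 members passed, where 1.3% of 12633 transcripts did, with Lrp2 at -0.48 (SE 0.26, adjusted p = 0.397) and Cubn at -0.52 (SE 0.30, adjusted p = 0.435). Of these 5 members, 0 had an unadjusted p below 0.05 in edgeR and 0 passed in DESeq2.

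The Pkd1 and Pkd2 models were then compared with each other. The P7 difference of Cubn was lower in the Pkd1 than in the Pkd2 model by 1.10 on the log2 scale (log2 value -1.10, SE 0.31, adjusted p = 0.154) and that of Lrp2 by 0.83 (log2 value -0.83, SE 0.29, adjusted p = 0.191). Neither passed, and 0.0% of 12343 transcripts passed in this interaction by edgeR, with 2116 at an unadjusted p below 0.05 and 409 called by DESeq2. Cubn was 1 of those 409 (-1.09, adjusted p = 0.0217 by DESeq2), and it passed in edgeR without Pkd1 WT replicate 3 (-1.20, adjusted p = 0.0313). At P7 Y-linked reads separated KO from WT fully in the Pkd1 model, while in the Pkd2 model only WT replicate 3 lacked them. Sex therefore cannot be told apart from model in this interaction. Its median was 0.20 for transcripts under 1500 bases and -0.17 for those of 8000 or more. With the length trend removed, neither Lrp2 nor Cubn passed. The comparison of WT kidneys between models passed the test in no member at P1, P3 or P7, where 0.0243%, 0.178% and 0.0243% of 12343 transcripts passed. These WT libraries are the same ones as in the comparisons with KO. The WT groups of the models also differed in which kidneys had Y-linked reads, as listed below with the day changes. At P3 the WT means were 17580 and 12210 for Lrp2 and 4657 and 3072 for Cubn, in the Pkd1 and the Pkd2 model, and Pkd2 WT replicate 2 was low in both, at 8486 and 1989.

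The next question was how the members changed in WT kidneys over the first week, when the proximal tubule matures. Lrp2 means at P1, P3 and P7 were 10930, 17580 and 15660 in the Pkd1 model and 10640, 12210 and 18480 in the Pkd2 model. Cubn means were 2503, 4657 and 4176 in the former and 2571, 3072 and 4664 in the latter. From P1 to P7 the receptors rose in Pkd2 WT kidneys, Lrp2 by 0.81 on the log2 scale (SE 0.24, adjusted p = 0.0420) and Cubn by 0.87 (SE 0.25, adjusted p = 0.0409). In Pkd1 WT kidneys the values were 0.52 (SE 0.20, adjusted p = 0.101) and 0.74 (SE 0.27, adjusted p = 0.0799), while Amn rose by 1.00 (SE 0.24, adjusted p = 0.0172). Amn in Pkd2 WT kidneys had a value of 0.47 (SE 0.20, adjusted p = 0.132). In all, 2 of 5 members in the Pkd2 and 1 of 5 in the Pkd1 model passed as higher, where 9.02% and 8.86% of all transcripts did. Dab2 and Ocrl passed in neither, with Ocrl at -0.11 and -0.06. Among Pkd1 WT kidneys, more than 5 Y-linked reads were found in replicates 1 and 3 at P1 and in every replicate at P3. None had more than 5 at P7. Sex and day therefore cannot be told apart there from P3 to P7, and not fully from P1 to P7. In Pkd2 WT kidneys such reads were in replicate 2 at P1, replicate 1 at P3 and replicates 1 and 2 at P7.

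Several of these day calls were lost when a library was left out. In the Pkd2 model the fold change of Lrp2 then ran from 0.65 to 1.02 and that of Cubn from 0.69 to 1.09. The Lrp2 call ended without WT replicate 2 or 3 at P1 or WT replicate 1 or 2 at P7 (adjusted p = 0.131, 0.148, 0.120 and 0.118). The Cubn call ended without the same 4 libraries (adjusted p = 0.121, 0.138, 0.118 and 0.0983) and without WT replicate 3 at P7 (adjusted p = 0.0610). Without WT replicate 1 at P1 or at P7, the Amn call in the Pkd1 model ended too (0.88, adjusted p = 0.0635, and 0.97, adjusted p = 0.0544). With the length trend removed, Lrp2 and Cubn passed in Pkd1 WT kidneys as well, at 0.73 (adjusted p = 0.00995) and 0.92 (adjusted p = 0.0153). In the single steps no member passed. For P1 to P3, 0.12% of all transcripts passed in the Pkd1 and 0.0317% in the Pkd2 model, and for P3 to P7 it was 7.66% and 18.5%. The P3 libraries enter both steps. By DESeq2, 1 member passed in each of 3 of these 4 steps (Cubn from P1 to P3 and Amn from P3 to P7 in the Pkd1 model, Lrp2 from P3 to P7 in the Pkd2 model).

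Lrp2 and Cubn kept a steady ratio. Cubn per kilobase was 0.335 of Lrp2 per kilobase in the median library, and between 0.269 and 0.413 over all 36, although each receptor alone varied more than 5-fold. The lowest pair of ratios was in Pkd1 KO at P7, which had 0.358, 0.269 and 0.284 against 0.371, 0.395 and 0.327 in WT. Those groups overlapped. Among 8795 other genes with enough reads, Cubn had the profile closest to Lrp2, and Lrp2 the one closest to Cubn. Closeness was the root mean square difference of log2 values centred on each gene's mean over 36 libraries, and it was 0.13 for this pair. The next were the brush border protease gene Mep1a and the glucose transporter gene Slc5a1 for Lrp2 (0.18 and 0.19), and Mep1a and the amino acid transport gene Slc3a1 for Cubn (each 0.18). Across all candidates the median distance was 0.56 from Lrp2 and 0.64 from Cubn.

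**Figure D3:**
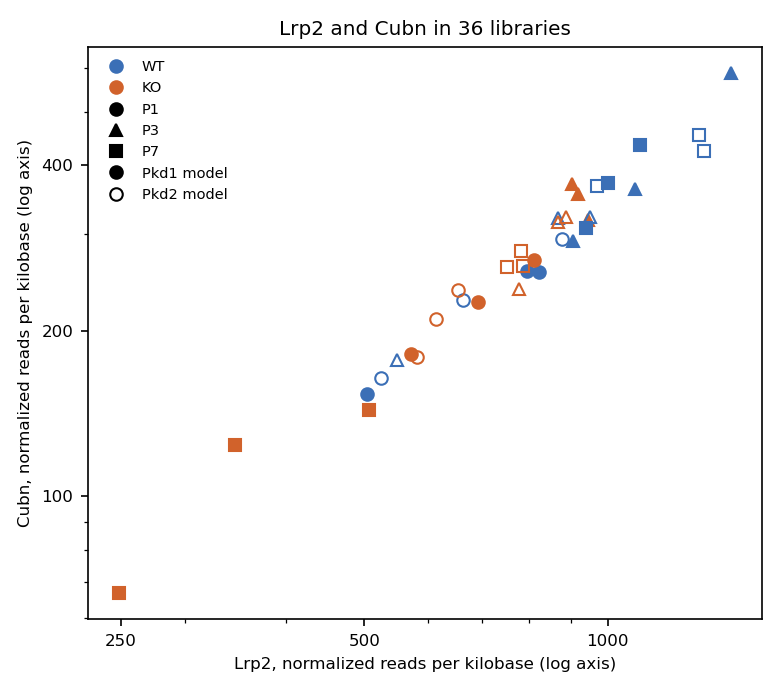
Cubn against Lrp2 in normalized reads per kilobase (both axes logarithmic) for each of the 36 libraries; colour gives genotype, shape the day, and filled or open points the Pkd1 or Pkd2 model. The libraries lie along a narrow band, with the 3 Pkd1 KO kidneys at P7 at its lower end, and the ratio of Cubn to Lrp2 stays between 0.269 and 0.413.

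The other members lay further from Lrp2 than Cubn did. From Lrp2, Amn ranked 821st, Dab2 1760th and Ocrl 5130th of the 8795 genes. The genes closest to Amn were Vwce, Rida and Fads3 (0.18, 0.20 and 0.20), those closest to Dab2 were Acadl, Rab5b and Edem3 (0.20, 0.21 and 0.22), and those closest to Ocrl were Ist1, Gba2 and Micu3 (0.10, 0.11 and 0.11). These distances are not scaled to how much a gene varies. The SD of the centred log2 values was 0.13 for Ocrl, 0.33 for Dab2 and 0.40 for Amn, against 0.51 for Lrp2 and 0.60 for Cubn. A small distance from Ocrl therefore reflects mainly that Ocrl varied little. Amn per kilobase was 7.16 ± 0.70 times Cubn in Pkd1 KO at P7 and 3.75 ± 1.63 times in WT (SD, n = 3 each), with single libraries at 6.78, 7.97 and 6.73 against 3.69, 2.16 and 5.41. For Pkd2 kidneys at P7 the ratios were 2.94 ± 0.12 and 2.54 ± 0.20, with the KO values again above all WT values. The ratio was not tested, and the share of other gene pairs so separated was not counted. Short and long transcripts moved apart in the Pkd1 libraries, as described above, and the part of that in this ratio was not tested.

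The genes along the rest of the route were examined from lists drawn up with earlier results of these data known. Of 22 vesicle traffic genes, 16 were tested, and at P7 2 were lower and 0 higher in Pkd1 KO and 3 were lower and 0 higher in Pkd2 KO, where 7.54% and 6.06% of all transcripts were lower. Lrpap1, which encodes the chaperone of megalin in the endoplasmic reticulum, fell by 0.78 in Pkd1 KO (adjusted p = 0.0300) and fell by 0.45 in Pkd2 KO (adjusted p = 0.0121), the order kept for the genes that follow. Myo6, which encodes a motor that carries endocytic vesicles inward, fell by 0.38 (adjusted p = 0.0414) and fell by 0.28 (adjusted p = 0.0258). Appl2, which encodes a protein of early endosomes, fell in Pkd2 KO by 0.24 (adjusted p = 0.0454). The clathrin heavy chain gene Cltc, the most abundant of the list, had -0.38 (adjusted p = 0.0999) and -0.02 (adjusted p = 0.899). The median over the list was 0.00 in the Pkd1 and 0.01 in the Pkd2 model, beside -0.01 and 0.00 over all transcripts.

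Of 19 endosome acidification and lysosome genes, 17 were tested, and 2 were lower in Pkd1 KO and 1 in Pkd2 KO at P7, with 0 higher. Of all transcripts, 7.54% and 6.06% were lower. Atp6v1a and Atp6v1e1, subunits of the proton pump, fell in Pkd1 KO at P7 by 1.07 (adjusted p = 0.0104) and fell by 0.43 (adjusted p = 0.0434), and Atp6v1e1 fell in Pkd2 KO by 0.33 (adjusted p = 0.0322). Proton pump subunits are also abundant in intercalated cells of the collecting duct. The lysosomal genes Ctsd, Ctsl and Lamp1, the most abundant of the list, passed in neither model. In Pkd1 KO, 14 of the 17 had a negative log2 fold change, a share that was not counted over all transcripts. The list medians were -0.17 and -0.06, beside -0.01 and 0.00 over all transcripts. Among related receptors, 8 of 10 were tested and 0 passed in Pkd1 KO. In Pkd2 KO, Lrp1 rose by 0.24 (adjusted p = 0.0420) and Lrp6 fell by 0.23 (adjusted p = 0.0277), both relatives of megalin in the LDL receptor family. Lrp10 had 0.11 in Pkd1 KO and 0.01 in Pkd2 KO and did not pass (adjusted p = 0.620 and 0.941). The list medians were -0.24 and -0.04.

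The same lists were counted in WT kidneys over the first week, where 8.86% of all transcripts passed as higher from P1 to P7 in the Pkd1 and 9.02% in the Pkd2 model. In that span, 12 of 18 proximal tubule genes passed as higher in the Pkd1 and 8 of 18 in the Pkd2 model, and none as lower, with medians of 0.86 and 0.75. Of 17 acidification and lysosome genes, 7 and 9 passed as higher, with medians of 0.34 and 0.37. Ctsl, a lysosomal protease gene, rose by 0.84 (adjusted p = 0.00292) and 1.03 (adjusted p = 0.00129). The vesicle traffic list had 1 and 2 of 16 higher, with medians of 0.08 and 0.15, and the related receptors had 1 of 8 higher and 1 lower in each model. Differences between the lists were not tested. The limit given above for Y-linked reads in the day changes holds for these lists as well.

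Proximal tubule genes outside the route, from a list likewise drawn up with earlier results known, were lower in the same comparisons. In Pkd1 KO at P7, 16 of the 18 tested were lower and 0 higher, with a median log2 fold change of -1.27, and in Pkd2 KO 14 of 18 were lower and 0 higher, with a median of -0.69. Of all transcripts, 7.54% were lower in Pkd1 KO and 6.06% in Pkd2 KO. The phosphate transporter gene Slc34a1 fell by 0.91 (adjusted p = 0.0469) and fell by 0.72 (adjusted p = 0.00839), and the aminopeptidase gene Anpep fell by 0.88 (adjusted p = 0.0139) and fell by 0.68 (adjusted p = 0.00194). Kap, an androgen-regulated gene of this segment, fell by 1.70 in Pkd1 KO (adjusted p = 0.0471) and had -1.54 in Pkd2 KO (adjusted p = 0.0567). Hnf4a, which encodes a transcription factor of this segment, fell by 0.98 (adjusted p = 0.0243) and fell by 0.57 (adjusted p = 0.0335). The summed level of the 26 genes ran from 107700 to 126000 normalized counts in Pkd1 WT and from 30810 to 60480 in Pkd1 KO, and from 119900 to 141200 and 67370 to 78210 in the Pkd2 model. Lrp2 lay inside this group, with 7 of the 18 below it in Pkd1 KO and 12 in Pkd2 KO, and so did Cubn, with 2 and 12 below it. Amn lay above 17 of the 18 in each model. Dab2 and Ocrl lay above all 18 in Pkd1 KO and above 17 in Pkd2 KO.

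**Figure D4:**
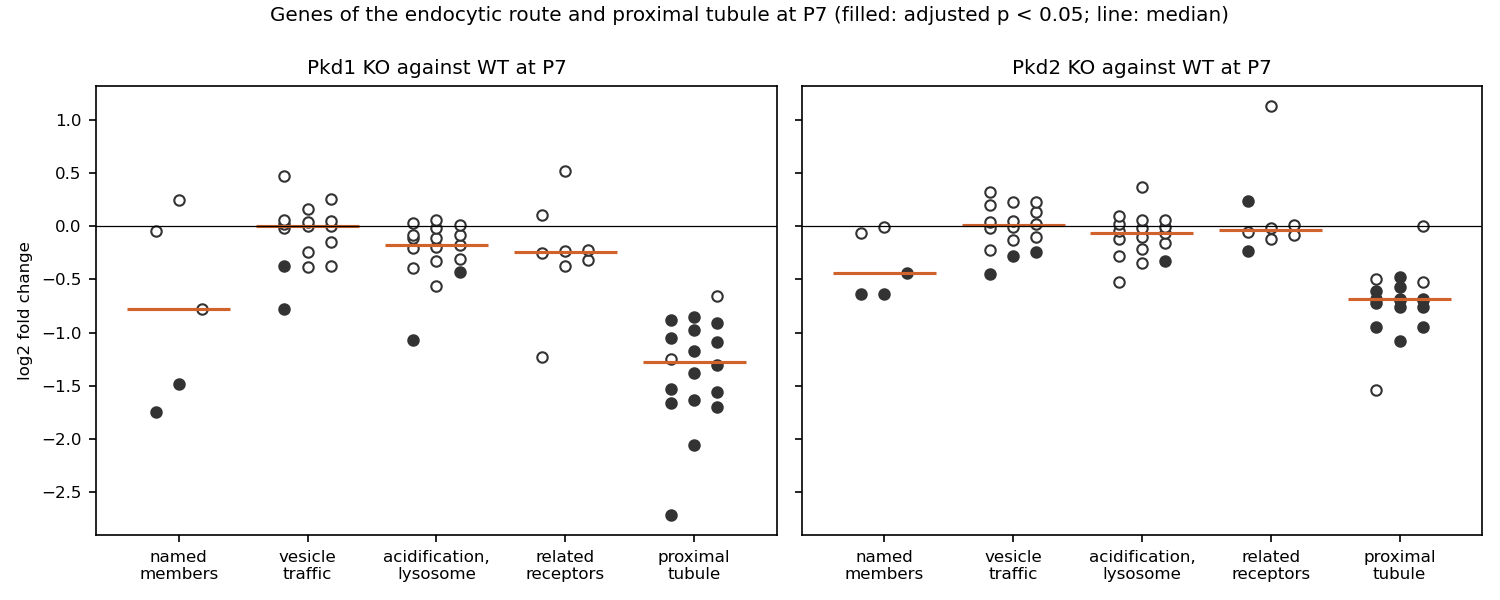
Log2 fold change of KO against WT at P7 (vertical axis) for every tested gene of 5 lists, the 7 named members with 5 tested and the lists of vesicle traffic, acidification and lysosome, related receptors and proximal tubule genes; filled points had an adjusted p below 0.05 and lines are medians. The medians of the proximal tubule list were -1.27 (Pkd1) and -0.69 (Pkd2), while those of the vesicle traffic list were 0.00 and 0.01.

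Markers of other cell types were counted in the same P7 comparisons. Over all transcripts, 944 of 12527 were lower and 777 higher in Pkd1 KO, and 765 of 12633 were lower and 988 higher in Pkd2 KO. Of 4 tested collecting duct genes, 3 were lower in each model. Aqp2 fell by 2.28 (adjusted p = 0.0356) and fell by 2.38 (adjusted p = 0.0151), and Aqp3 fell by 1.19 (adjusted p = 0.00606) and fell by 0.86 (adjusted p = 0.000778). Hsd11b2 had -0.73 in Pkd1 KO (adjusted p = 0.0707) and fell by 0.44 in Pkd2 KO (adjusted p = 0.0405). In the distal list, Calb1 had -1.18 and -0.70 (adjusted p = 0.0700 and 0.0644), while the sparsely read Slc12a1 fell by 2.22 in Pkd1 KO (adjusted p = 0.0278) and had -1.13 in Pkd2 KO (adjusted p = 0.0641).

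Interstitial genes did not move as one. Of 3 tested, 1 was higher in Pkd1 KO and 2 in Pkd2 KO. Acta2, a gene of smooth muscle and myofibroblasts, rose by 1.41 (adjusted p = 0.00218) and 1.75 (adjusted p = 0.000228). The collagen gene Col1a1 had 0.33 in Pkd1 KO (adjusted p = 0.232) and rose by 0.89 in Pkd2 KO (adjusted p = 0.00563). Col3a1, the most abundant of the list, had -0.55 in Pkd1 KO (adjusted p = 0.0777) and 0.09 in Pkd2 KO (adjusted p = 0.634). The summed level of 4 interstitial markers, of which Pdgfrb was at 0, ran from 76020 to 97420 normalized counts in Pkd1 WT and from 95790 to 115000 in Pkd1 KO, and from 78420 to 82980 and 113000 to 135700 in the Pkd2 model.

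Of 3 tested tubular injury genes, 1 passed in each model. Lcn2 rose by 3.57 (adjusted p = 0.00747) and 2.78 (adjusted p = 0.00627). Vcam1, the most abundant of them, had -0.20 and -0.43 (adjusted p = 0.630 and 0.0880), and the sparsely read Spp1 had 1.16 and 1.24 (adjusted p = 0.266 and 0.0543). Of 3 tested nephron progenitor genes, Six2, Meox1 and Cited1, none passed in either model in edgeR. Among endothelial and leukocyte genes, Kdr had -0.59 in Pkd1 KO (adjusted p = 0.0549) and fell by 0.44 in Pkd2 KO (adjusted p = 0.00396), Csf1r had 0.11 in Pkd1 KO (adjusted p = 0.530) and rose by 0.35 in Pkd2 KO (adjusted p = 0.0236), and Adgre1 and Cd68 passed in neither. The part of these markers in the lower receptor counts was not tested.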

How the data were processed

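Kidney RNA-seq libraries, 36 in all, were analysed. The authors mapped HiSeq reads to mm10 with TopHat2 2.1.0 after CASAVA 1.8.2 and counted them with HTSeq (default options, RefSeq annotation), and the deposited table holds raw read counts per RefSeq transcript. Symbols were paired through RefSeq tables of GRCm38.p6 for 28978 of 29996 rows. A transcript was kept if 3 or more of a model's 18 libraries had 10 or more counts. Tests used edgeR 4.0.16 (quasi-likelihood test, TMM factors, Benjamini-Hochberg adjustment, threshold 0.05) in R 4.3.3. Groups came from the sample labels. A standard error is the log2 fold change over the square root of F. Normalized counts are counts scaled by TMM factors over 36 libraries. The members and gene lists were chosen with earlier results of these data known. All members were named, with the 3 most abundant genes of a list, the 3 profiles closest to each member (over genes averaging at least 100 normalized counts), the deleted genes and the Y-linked genes. The result of 1 list is not reported here. Genes named beside these (Appl2, Atp6v1a, Atp6v1e1 and Hnf4a) were chosen after their values were seen.

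Alternatives were DESeq2 1.42.0, RLE factors, other count filters, summed rows of a gene, a replicate block, all 18 libraries in one fit with or without Y-linked reads, each library left out, and, added later, removal of the length trend. The steps were tested on simulated data. Chi-square per transcript between replicates was between 5.15 and 63.99, so no 2 replicates of a group were copies of each other (libraries of different groups were not compared in this way). The labels give replicate numbers but not which animals or litters they stand for, so p-values measure the spread between these libraries. Same-numbered WT and KO libraries deviated together in every pair only in the Pkd1 model at P1 (correlations 0.347, 0.205 and 0.519), where the block changed no call of a member.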

Additional observations from a re-analysis of the deposited data

Results flagged for a closer look

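Both of these results were flagged because the KO effect differed between time points by a test of the difference itself. In the Pkd1 model the log2 difference between KO and WT was lower at P7 than at P1 for Lrp2 (-1.45, adjusted p = 0.0141) and for Cubn (-1.77, adjusted p = 0.0141), in edgeR's interaction test. All 3 KO kidneys were below all 3 WT kidneys at P7 for both genes, and the share of all transcripts so separated was not counted. Y-linked reads were in all 3 KO and no WT kidneys at P7, and in no KO and 2 of 3 WT kidneys at P1, so their share in this difference cannot be told apart from genotype.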

How the results depend on the processing

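The count of members that passed at P7 was 2 in Pkd1 KO and 3 in Pkd2 KO. With Y-linked reads as a term it was 0 in the Pkd1 model, where all P7 KO and no P7 WT kidneys had such reads, and with all 18 libraries in one fit it was 1 in the Pkd2 model. Leaving out single libraries gave 2 to 3 in the Pkd1 and 1 to 3 in the Pkd2 model. From P1 to P7 the main counts were 1 in Pkd1 and 2 in Pkd2 WT kidneys. In Pkd1 WT they became 2 with DESeq2, 2 without the low-count filter, 3 with the length trend removed and 0 to 1 with libraries left out, and in Pkd2 WT 0 to 2 with libraries left out. DESeq2 gave 1 in place of 0 for Pkd1 WT P1 to P3 and P3 to P7, Pkd2 WT P3 to P7 and the difference between models. The replicate block gave 1 for Pkd1 WT from P3 to P7, and leaving out libraries gave 0 to 1 for that step and for the difference between models. The block ended no call of Lrp2 or Cubn at P7 and passed Amn in Pkd1 KO at P7 (-0.78, adjusted p = 0.0226) and in the Pkd1 interaction (-0.88, adjusted p = 0.0048). Same-numbered Pkd1 WT and KO libraries did not deviate together at P7 (correlations -0.193, -0.012 and -0.14) but did at P1, whose libraries also enter that interaction.

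Signs turned only where no call was made. Dab2 in Pkd1 KO at P7 became 0.77 with the Y-linked term and 0.11 with the length trend removed, and ran from -0.19 to 0.067 with libraries left out. Dab2 in Pkd2 KO became 0.020 with the Y-linked term and ran from -0.093 to 0.016. Its interaction in the Pkd1 model became 0.11 with the length trend removed and ran from -0.35 to 0.22, its difference between models from -0.10 to 0.15, and its Pkd1 WT change from P1 to P7 from -0.16 to 0.41. Ocrl in Pkd2 KO at P7 became 0.0020 without a filter, 0.0064 with the strict filter, 0.0049 with rows summed, 0.0167 with the Y-linked term and 0.0115 with the length trend removed, and ran from -0.038 to 0.029. Its Pkd2 interaction became 0.0032 with DESeq2, 0.0034 with RLE factors, 0.0064 with the strict filter, 0.0099 with rows summed and 0.0167 with the length trend removed, and ran from -0.047 to 0.044. Amn in the Pkd2 interaction ran from -0.066 to 0.22. Over all transcripts, the number passing in Pkd1 KO at P7 ran from 6 (Y-linked term) to 3882 over the alternatives and from 224 to 3206 with libraries left out, beside 1721 in the fit reported, and in Pkd2 KO from 1485 to 2264 and from 650 to 2052, beside 1753. Member levels moved by less than 1 SD with RLE factors in all 60 group means.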
